A study of Mus musculus with 3 samples.

Results

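The comparison of LPS-treated with untreated RAW264.7 macrophages rested on 2 of the 3 RNA-seq libraries of the series, 1 on each side, and covered the 11922 of 26661 genes that reached 1 FPKM in at least 1 of both libraries. RAW264.7 is a mouse macrophage-like line that arose from a tumour induced by a transforming virus, so each library is a sample of a proliferating tumour line and not of tissue macrophages; the labels give its genotype as WT and its tissue as lung. The LPS culture received lipopolysaccharide at 0.5 µg/ml for 6 h, and the control culture stayed in ordinary medium; whether both were grown in parallel is not stated. The third library, which received 10 µM of the plant alkaloid harmine 0.5 h ahead of the same LPS treatment, is quoted only where it bears on a result. With 1 library a side no difference has a replicate check: every value compares these 2 libraries, differences between cultures are part of it, and no p-values were computed.

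LPS is the glycolipid of the outer membrane of Gram-negative bacteria. Macrophages bind it through CD14 and the TLR4 and MD-2 complex, which signals through the adaptor MyD88 to NF-kB and MAP kinases and through the adaptor TRIF to IRF3 and interferon beta. Interferon beta then acts back on the cell through STAT proteins and IRF9, so that a treatment of some hours holds both the direct inflammatory genes and a second layer of interferon-induced ones, together with inhibitors that end the response.

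Levels are FPKM, fragment counts scaled by transcript length and by library size, as deposited by the authors. The log2 difference is log2(FPKM + 1) with LPS minus log2(FPKM + 1) in control, which understates the difference of genes near 1 FPKM. A gene is called higher or lower below only where this difference reached 2-fold. A gene under 1 FPKM in control enters the comparison only through the LPS library and cannot be called lower, and the reverse also holds. A fold is a plain ratio of both FPKM values, and the range behind it is a 95% exact interval for the split of read pairs between the libraries (Clopper-Pearson), which covers counting error only. Gene positions are on mm10 and come from the authors' table.

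The deposited counts summed to 52845589 with LPS and 58169999 in control, and 4 counts were taken as 1 read pair, since 1096 genes with LPS and 1072 in control had a count of exactly 4 against 573 and 566 with a count of 3. At least 1 FPKM was reached by 11126 genes with LPS and 11302 in control. Mitochondrial genes held 3.18% of the counts with LPS and 3.80% in control. Macrophage markers were present on both sides: their summed level over 16 genes was 2307 FPKM with LPS and 2519 in control, Cd68 stood at 444 FPKM with LPS and 522 FPKM in control, Spi1, the lineage factor PU.1, at 121 FPKM with LPS and 99 FPKM in control, and Mertk alone stayed under 1 FPKM. As to the lung label, the listed markers Sftpa1, Sftpc, Sftpd and Scgb1a1 were not found. The surfactant gene Sftpb was 0.013 FPKM with LPS against 0 FPKM in control, and Ager 0.662 FPKM with LPS against 0.6 FPKM in control. Of the same list, Krt8 (8.09 FPKM with LPS, 2.61 in control) and Epcam (3.07 FPKM with LPS, 0.995 in control) were higher. Markers of other tissues moved with the group. All 8 compared keratinocyte and intestinal markers were higher with LPS. Of these, Krt14, Krt10, Krt5, Krt1 and Vil1 reached 1 FPKM only with LPS, so they could not have been called lower. The other 4 members were under 1 FPKM with LPS and in control and were not compared. The 12 genes of that list summed to 76.3 FPKM with LPS, 84.0 with harmine plus LPS and 21.3 in control. Fibroblast and endothelial markers summed to 11.1 FPKM with LPS, 11.2 with harmine plus LPS and 2.23 in control. Lung epithelial markers summed to 14 FPKM with LPS, 20.5 with harmine plus LPS and 4.89 in control, and lymphocyte markers to 3.63, 3.16 and 0.724 FPKM in these libraries. No keratinocyte or intestinal marker was at 0 in either library, while 2 lymphocyte markers with LPS and 7 in control were at 0. Neutrophil, mast cell and erythroid markers summed to 6.87 FPKM with LPS, 13.5 with harmine plus LPS and 6.88 in control, with 5 of 14 at 0 with LPS and 8 in control. The alpha-defensins, genes of the gut, summed to 594 FPKM with LPS, 589.7 with harmine plus LPS and 152 in control. Whether these transcripts came from the cultures or from RNA of another sample was not tested, nor was their part in the differences below. Leaving out the listed markers of other cell types gave 692 higher and 880 lower genes, and leaving out the alpha-defensins as well, an alternative chosen after seeing the data, 669 higher and 880 lower.

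The libraries differed by large factors for a small part of the genes and by little for most. At 2-fold, 706 genes (5.92% of all compared) were higher and 880 (7.38%) lower, while 10336 (86.7%) stayed within 2-fold. The upper side reached further. At 4-fold, 225 genes (1.89%) were higher and 86 (0.721%) lower, at 8-fold 96 and 5, at 16-fold 48 and 0, and at 32-fold 18 and 0. The median log2 difference of all genes was -0.14, and list medians below are read against it. The higher genes made up 44.5% of all calls; after scaling both libraries to the same upper quartile, which moved the median of all genes by more than 0.1 to -0.017, there were 823 higher and 670 lower genes, a share of 55.1%. The counting interval of the ratio lay above 1 for 691 of 706 higher genes and below 1 for 865 of 880 lower ones. Genes under 5 FPKM in both libraries gave 193 of the higher and 214 of the lower calls.

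**Figure D1:**
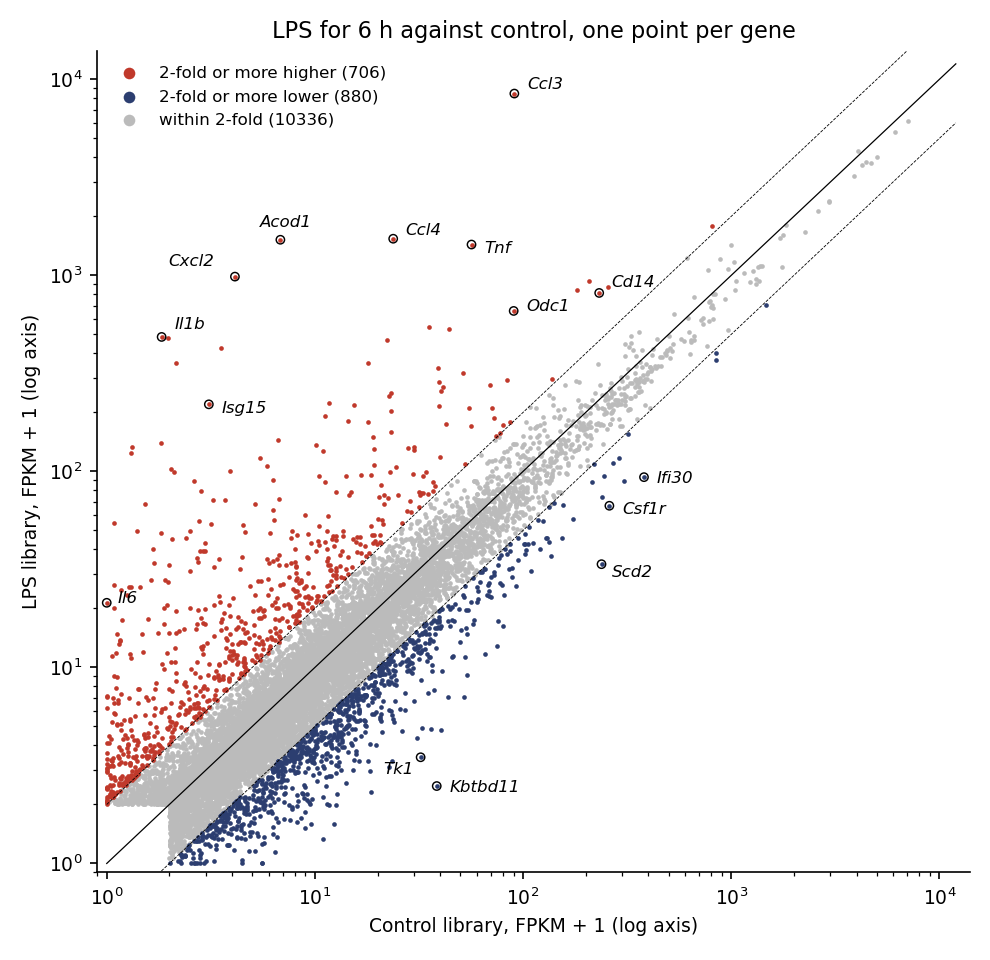
FPKM + 1 of each of the 11922 genes with LPS (vertical, log axis) against control (horizontal, log axis), 1 point per gene; dashed lines mark 2-fold, red points are the 706 higher genes and blue points the 880 lower ones. The red points reach far above the diagonal, with Ccl3 at 8466 FPKM with LPS the farthest up, while the blue points form a band close below the 2-fold line.

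The higher genes took a large part of the transcript pool. They held 13.8% of the summed FPKM with LPS and 2.00% in control, and the lower genes 2.52% with LPS and 6.76% in control. Ccl3 alone held 2.64% with LPS and 0.0274% in control, and ranked 1st with LPS and 381st in control among nuclear genes with a protein-coding transcript. Among other ranks, Ccl4 stood 5th with LPS and 1923rd in control, Acod1 6th with LPS and 5853rd in control, Tnf 7th with LPS and 731st in control, and Cxcl2 16th with LPS and 7599th in control. Among all genes, mitochondrial ones included, the 10 of highest FPKM in each library were, besides Ccl3 with LPS, mitochondrial transcripts, copies of them on chromosome 1 (Gm10925, Gm28661, Gm28437) and the elongation factor Eef1a1, which was 4297 FPKM with LPS against 4045 FPKM in control. Genes with a mean of 100 FPKM or more were called higher more often than lower, 44 against 17 of 447, whereas between 2 and 10 FPKM the order was the other way, 248 higher and 431 lower of 5177.

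Among genes of 10 FPKM or more in either library, the 15 with the largest upward difference were mostly secreted signals: Il1b, Csf3, Cxcl2, Acod1, Ccl5, Ptgs2, Ccl22, Il1a, Ccl3, Ccl2, Isg15, Ccl4, Lif, Il27 and Cd40. Their log2 differences ran from 8.05 for Il1b to 5.57 for Cd40, and in control all of them but Ccl3 and Ccl4 were at or below the 5.83 FPKM of Acod1. The 15 with the largest downward difference had no such common role. Kbtbd11 led them, with 1.48 FPKM with LPS and 37.5 FPKM in control, a log2 difference of -3.95. Thymidine kinase 1 (Tk1), which salvages thymidine for DNA synthesis, was 2.48 FPKM with LPS against 31.2 FPKM in control. Plau, the urokinase-type plasminogen activator, was 3.81 FPKM with LPS against 39.2 FPKM in control, and Ptgs1, the constitutive cyclooxygenase, 1.31 FPKM with LPS against 17.5 FPKM in control. The others were Susd3, the oxysterol receptor Gpr183, Ndrg2, the GTPase-activating protein Rasa3, the desaturase Scd2, the nuclear membrane protein Nrm, the sulfotransferase Chst1, the lipid receptor Trem2, the scaffold protein Ahnak, E2f2 and Lyl1, a haematopoietic transcription factor, with log2 differences between -2.95 and -2.55.

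At the cell surface the LPS receptor and its partners differed in direction. Cd14, the LPS-binding co-receptor (chromosome 18, 36725067 to 36726798, minus strand), was 813 FPKM with LPS against 231 FPKM in control, 3.52-fold higher (3.42 to 3.61). Tlr4 itself was 1.95 FPKM with LPS against 4.87 FPKM in control, a log2 difference of -0.99, just short of the 2-fold line. Ly96, which encodes MD-2, was 8.26 FPKM with LPS against 4.28 FPKM in control, and Ly86, the partner of the related receptor RP105, 14.2 FPKM with LPS against 29.5 FPKM in control. Of 9 compared receptor components 2 were higher and 1 lower. Of the adaptors, Ticam1, encoding TRIF, was the higher member with 20.1 FPKM with LPS and 6.4 FPKM in control, and Myd88 was 67 FPKM with LPS against 34.8 FPKM in control, under the line. Across the toll-like receptors and their chaperones 3 of 10 were higher and 2 lower. Tlr2, the lipoprotein receptor, was 171 FPKM with LPS against 79.2 FPKM in control, and its partner Tlr1 19.1 FPKM with LPS against 5.66 FPKM in control; Tlr13, a receptor for bacterial ribosomal RNA, was 1.79 FPKM with LPS against 10.7 FPKM in control, 5.98-fold lower (4.9 to 7.31).

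Below the receptors most signalling genes differed by less than 2-fold, as did 86.7% of all compared genes. Of all compared genes 5.92% were higher and 7.38% lower. In the list of IRAK, TRAF and TAK1 proteins 3 of 14 members were higher and none lower: Irak2 (35.1 FPKM with LPS, 8.28 in control), the ubiquitin ligase Peli1 (13.2 FPKM with LPS, 2.72 in control) and Irak3 (8.62 FPKM with LPS, 2.35 in control), known as an inhibitory member of its family. The kinase Irak4, the ubiquitin ligase Traf6 and the kinase Map3k7 (TAK1) stayed within 2-fold. Among IKK and related kinases 3 of 11 were higher: Ikbke, a kinase of IRF3 and IRF7, was 30.8 FPKM with LPS against 3.35 FPKM in control, 9.2-fold higher (8.37 to 10.1), Tnip1, a ubiquitin-binding inhibitor, 132 FPKM with LPS against 29.1 FPKM in control, and Tank 17.6 FPKM with LPS against 7.09 FPKM in control. None of 17 MAP kinase cascade members was higher. Only Map3k5, the stress kinase ASK1, was lower, at 1.17 FPKM with LPS and 4.56 FPKM in control, and the kinase with the most transcript, Mapkapk2, was 284 FPKM with LPS against 184 FPKM in control.

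The transcription factors on which the pathway ends showed strong and uneven differences. In the NF-kB and IkB list 8 of 11 members were higher and 0 lower, with a median log2 difference of 2.14. Nfkbiz, which encodes IkB zeta, a nuclear co-activator of secondary inflammatory genes (chromosome 16, 55811375 to 55838899, minus strand), led the list with 78.9 FPKM with LPS and 1.84 FPKM in control, 42.9-fold higher (36.5 to 50.7). The inhibitor Nfkbia was 338 FPKM with LPS against 38.1 FPKM in control. The precursor subunits Nfkb1 (75.1 FPKM with LPS, 13.6 in control) and Nfkb2 (77.6 FPKM with LPS, 11.7 in control) and the subunit Rel (44.6 FPKM with LPS, 6.65 in control) were all higher, whereas Rela, the subunit that carries most of the activating function, was 20.8 FPKM with LPS against 17.5 FPKM in control, a log2 difference of 0.24, and Relb 5.24 FPKM with LPS against 3.11 FPKM in control. Nfkbid, another nuclear IkB protein, was 33.3 FPKM with LPS against 20.5 FPKM in control, also within 2-fold.

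AP-1 factors divided by member. In that list 8 of 15 members were higher and 0 lower, with a median log2 difference of 1.05. Junb was 317 FPKM with LPS against 50.7 FPKM in control, and Fosl1, encoding FRA-1, 19.1 FPKM with LPS against 0.882 FPKM in control, 21.6-fold higher (14.8 to 32). Fos, an immediate early gene, was 10.8 FPKM with LPS against 19.7 FPKM in control, below control but short of 2-fold, and Jun was 17.6 FPKM with LPS against 12.7 FPKM in control. Jdp2, a repressor of AP-1 that was not in the list, was 95 FPKM with LPS against 15.7 FPKM in control. In the deposited annotation of transcription factor families, 39 of 738 compared factors were higher and 47 lower. Against that share, the bZIP family had 10 of 40 higher and 0 lower, the STAT family 4 of 6 higher, and in the Rel homology family Nfkb1, Nfkb2 and Rel were higher but Nfatc1 and Nfatc2 lower. Of E2F factors 4 of 10 were lower and 0 higher, and of bHLH factors 7 of 33 were lower and 2 higher.

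Factors of the interferon axis were selective too. Among IRF genes 2 of 8 were higher: Irf7, the amplifier of interferon alpha genes (chromosome 7, 141262706 to 141266481, minus strand), was 70.2 FPKM with LPS against 2.25 FPKM in control, 31.2-fold higher (26.2 to 36.9), and Irf9, a part of the ISGF3 complex, 16.8 FPKM with LPS against 4.52 FPKM in control. Irf3, which starts the interferon arm and acts by phosphorylation, was 11.5 FPKM with LPS against 11.2 FPKM in control, and Irf5 68 FPKM with LPS against 60.00 FPKM in control. In the STAT and JAK list 5 of 10 were higher and none lower. Stat2 was 12.5 FPKM with LPS against 3.57 FPKM in control, Stat3 11.4 FPKM with LPS against 4.66 FPKM in control and the kinase Jak2 15.5 FPKM with LPS against 4.12 FPKM in control, while Stat6, the interleukin 4 factor, was 37.2 FPKM with LPS against 31.5 FPKM in control.

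Factors of myeloid identity showed a mixed picture. In the myeloid lineage list 3 of 22 members were higher and 4 lower, with a median log2 difference of -0.40. Cebpd, an acute-phase factor, was 17 FPKM with LPS against 3.25 FPKM in control, Ets2 46.2 FPKM with LPS against 17.7 FPKM in control and Zeb2 9.56 FPKM with LPS against 3.62 FPKM in control. Tfeb, the master regulator of lysosomal genes, was 0.36 FPKM with LPS against 4.7 FPKM in control, 13.1-fold lower (8.93 to 19.1), while its relative Tfe3 was 12.8 FPKM with LPS against 10.01 FPKM in control. Mef2c was 3.92 FPKM with LPS against 13 FPKM in control and Runx1 2.33 FPKM with LPS against 5.67 FPKM in control. In the KLF, EGR and NR4A list 2 of 12 were higher and 2 lower: Egr1 was 34.6 FPKM with LPS against 5.61 FPKM in control and its co-repressor Nab2 53.1 FPKM with LPS against 20.3 FPKM in control, whereas Klf4 was 0.684 FPKM with LPS against 6.12 FPKM in control, 8.94-fold lower (6.13 to 13.2), and Klf10 1.13 FPKM with LPS against 5.66 FPKM in control. MYC family members differed in direction: Myc was 27 FPKM with LPS against 0.905 FPKM in control, 29.8-fold higher (21.5 to 40.9), but Mycn, by level the larger of both, was 93.4 FPKM with LPS against 245 FPKM in control, and Bmyc 3.75 FPKM with LPS against 25.3 FPKM in control.

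**Figure D2:**
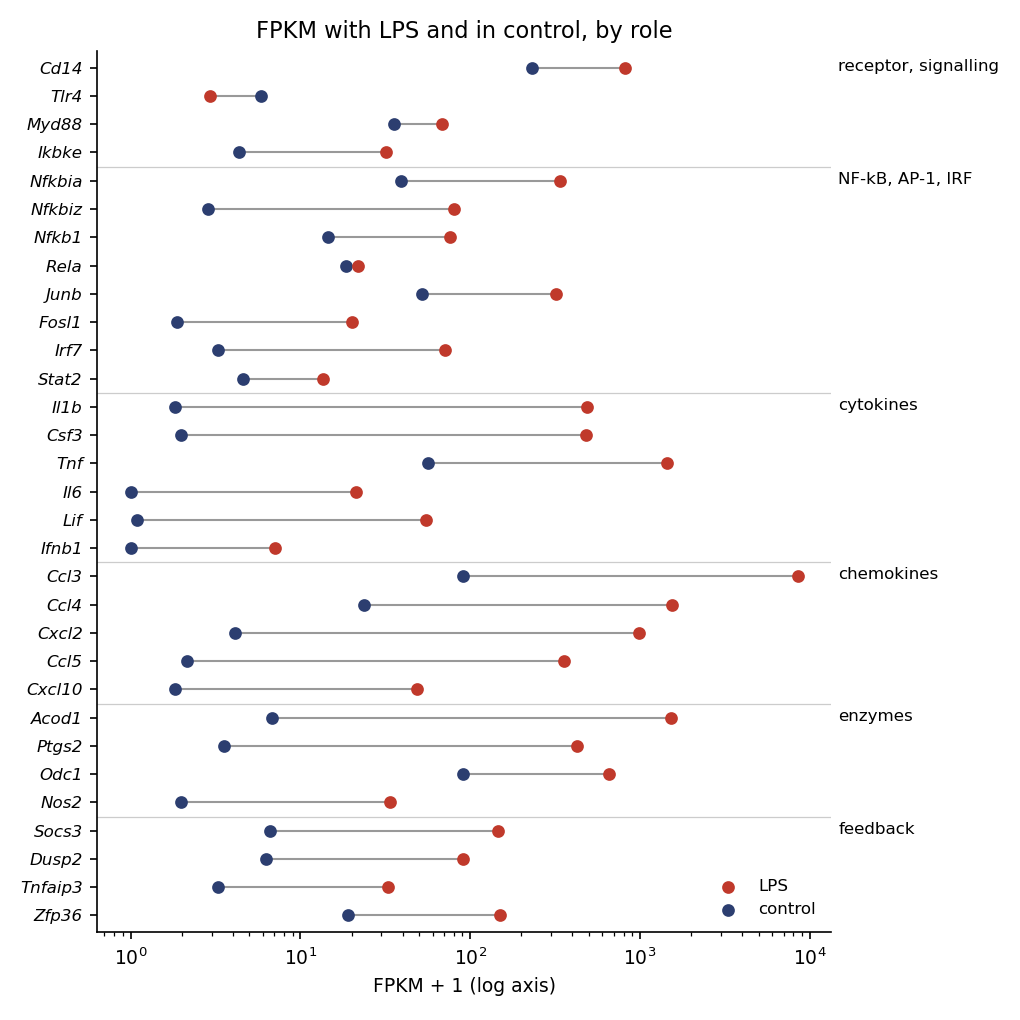
FPKM + 1 (log axis) with LPS (red) and in control (blue) for genes along the response, grouped by role from the receptor to feedback inhibitors, 1 library per point. Most red points lie to the right of their blue partner; Tlr4 lies to the left, and Rela shows almost no distance.

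Some inhibitors of the response were among the stronger differences, while most members of their lists were not higher. The median log2 difference was 0.18 for SOCS-type inhibitors, or -0.06 with a filter of 5 FPKM. For dual-specificity phosphatases the median was 0.99, for ubiquitin regulators 0.24 and for RNA-binding regulators 0.31. Socs3, which blocks STAT3 signalling, was 144 FPKM with LPS against 5.66 FPKM in control, 25.5-fold higher (22.6 to 28.9), and Cish 3.48 FPKM with LPS against 0.0231 FPKM in control; these were the only 2 of 11 compared SOCS-type inhibitors that were higher, with Socs1 below 1 FPKM on both sides. Dual-specificity phosphatases, which inactivate MAP kinases, had 5 of 11 higher and none lower. Dusp5, specific for ERK, was 27.1 FPKM with LPS against 0.624 FPKM in control, Dusp2 89.8 FPKM with LPS against 5.27 FPKM in control and Dusp4 36.5 FPKM with LPS against 12.2 FPKM in control, while Dusp1, a phosphatase known from early LPS responses, was 3.8 FPKM with LPS against 1.38 FPKM in control. Among ubiquitin regulators of NF-kB 3 of 15 were higher: Traf1 was 52.7 FPKM with LPS against 2.17 FPKM in control, Tnfaip3, encoding A20, 31.6 FPKM with LPS against 2.26 FPKM in control, 14-fold higher (12.3 to 15.9), and Birc3 44.2 FPKM with LPS against 11.1 FPKM in control. Genes for proteins that destroy cytokine mRNA were split. Zc3h12a, encoding the nuclease regnase 1, was 55.7 FPKM with LPS against 5.35 FPKM in control, Zfp36, encoding tristetraprolin, 148 FPKM with LPS against 18 FPKM in control, and Zc3h12c 33.3 FPKM with LPS against 5.0 FPKM in control, but Zfp36l2, a relative of tristetraprolin, was 6.43 FPKM with LPS against 33.8 FPKM in control, 5.25-fold lower (4.68 to 5.91).

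Cytokine genes carried the largest differences, and the control library held little transcript of most of them. Il1b (chromosome 2, 129364570 to 129371139, minus strand) was 484 FPKM with LPS against 0.836 FPKM in control and Il1a 123 FPKM with LPS against 0.312 FPKM in control, and the receptor antagonist Il1rn, which blocks both, 44.5 FPKM with LPS against 1.42 FPKM in control. Il18, the other inflammasome substrate, was 15 FPKM with LPS against 6.52 FPKM in control, a smaller difference. In the interleukin 6, 12 and 10 list 7 of 9 compared members were higher and 0 lower, with a median log2 difference of 2.55. Among these, Il6 and Lif reached 1 FPKM only with LPS, so they could not have been called lower. Another 9 of the 18 found were under 1 FPKM in both libraries and were not compared. Over the alternative settings 6 to 8 were higher and 0 lower, and the median ran from 0.52 to 3.05. Il6 (chromosome 5, 30013114 to 30019981, plus strand) reached 20.4 FPKM with LPS against 0 counts in control. With a floor of 3 read pairs in the library at 0, that is 273-fold higher, and the lower end of the exact interval was 222-fold. Ifnb1, the interferon beta gene, likewise reached 6.05 FPKM with LPS against 0 counts in control. That is 25-fold higher at the same floor and 19.8-fold at the lower end of the exact interval. Lif was 53.8 FPKM with LPS against 0.0849 FPKM in control, Il27, the p28 subunit of interleukin 27, 102 FPKM with LPS against 1.04 FPKM in control, and its partner Ebi3 58.2 FPKM with LPS against 10.6 FPKM in control. Il10, the main anti-inflammatory cytokine, was 0.245 FPKM with LPS against 0.0916 FPKM in control, 20 deposited counts with LPS and 8 in control, under the level of comparison, and Il12b and Il19 were under 1 FPKM as well.

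Growth factors were higher while some of their receptors were lower. Csf3 (chromosome 11, 98701263 to 98703629, plus strand) was 476 FPKM with LPS against 0.971 FPKM in control, Csf2 66.8 FPKM with LPS against 0.532 FPKM in control, 126-fold higher (59.7 to 299), Pdgfb 179 FPKM with LPS against 13.5 FPKM in control and Csf1 4.78 FPKM with LPS against 0.0973 FPKM in control. The lower members were receptors: Csf1r, the receptor for CSF1 and a mark of macrophages (chromosome 18, 61100598 to 61131134, plus strand), was 65.8 FPKM with LPS against 259 FPKM in control, 3.93-fold lower (3.82 to 4.05), and Csf3r 0.513 FPKM with LPS against 2.39 FPKM in control; Csf2ra, a chain of the CSF2 receptor, was 26.9 FPKM with LPS against 17.5 FPKM in control, within 2-fold. Receptors of the interleukin 6, 10 and interferon families had 1 of 16 higher and 3 lower. Il10ra was 21.7 FPKM with LPS against 8.41 FPKM in control, whereas Il6ra was 4.03 FPKM with LPS against 13.4 FPKM in control, Tgfbr2 7.92 FPKM with LPS against 17.7 FPKM in control and Il21r 0.152 FPKM with LPS against 3.82 FPKM in control, 25.2-fold lower (12.2 to 59). Of 4 compared TNF ligands only Tnf was higher, at 1436 FPKM with LPS and 55.6 FPKM in control; Ltb, lymphotoxin beta, was 49.1 FPKM with LPS against 41.2 FPKM in control. Among TNF receptors Cd40 was 98.6 FPKM with LPS against 1.1 FPKM in control, Tnfrsf1b, TNF receptor 2, 106 FPKM with LPS against 4.86 FPKM in control, and Fas 11 FPKM with LPS against 0.50 FPKM in control, while Tnfrsf1a was 36.6 FPKM with LPS against 26.6 FPKM in control and Tnfrsf11a, the osteoclast receptor RANK, 4.33 FPKM with LPS against 11.8 FPKM in control.

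CC chemokines gave the highest list median of all at the main settings. In that list 9 of 11 compared members were higher and 0 lower, with a median log2 difference of 3.60. Of these 11, Ccl22, Ccl2, Ccl7, Ccl17, Ccl8 and Ccl6 reached 1 FPKM only with LPS, so they could not have been called lower. Another 6 were under 1 FPKM in both libraries and were not compared. Over the alternative settings 7 to 11 were higher and 0 lower, and the median ran from 1.05 to 6.26. Besides Ccl3 (chromosome 11, 83647844 to 83649355, minus strand), at 8466 FPKM with LPS and 89.8 FPKM in control, and its neighbour Ccl4, at 1538 FPKM with LPS and 22.8 FPKM in control, which attract monocytes and T cells, Ccl5 was 355 FPKM with LPS against 1.15 FPKM in control, 309.6-fold higher (194 to 511), Ccl2 139 FPKM with LPS against 0.825 FPKM in control and Ccl9 534 FPKM with LPS against 43.3 FPKM in control. Ccl22, an attractant of regulatory T cells, was 132 FPKM with LPS against 0.33 FPKM in control. The CXC list had 4 of 7 higher and 2 lower, with a median of 1.11. The neutrophil attractant Cxcl2 was 985 FPKM with LPS against 3.13 FPKM in control, and the interferon-induced Cxcl10 47.5 FPKM with LPS against 0.831 FPKM in control. Cxcl3 had 6.16 FPKM with LPS and 0 counts in control. That is 119-fold higher at the floor of 3 read pairs and 96.4-fold at the lower end of the exact interval. Cxcl1, by contrast, was 0.107 FPKM with LPS against 0.016 FPKM in control, under 1 FPKM on both sides. The lower members were Cxcl14 (1.82 FPKM with LPS, 6.04 in control) and Ppbp, with 0 counts with LPS and 1.93 FPKM in control. For Ppbp that is 10.5-fold lower at the same floor and 8.11-fold at the lower end of the exact interval. Receptors for chemoattractants differed both ways. C5ar1, the C5a receptor, was 33.7 FPKM with LPS against 1.73 FPKM in control, C3ar1 18 FPKM with LPS against 2.65 FPKM in control and Ccrl2 19 FPKM with LPS against 0.0889 FPKM in control; Cx3cr1, the fractalkine receptor, was 25 FPKM with LPS against 91.3 FPKM in control, S1pr1 0.243 FPKM with LPS against 2.88 FPKM in control and Cxcr3 0.783 FPKM with LPS against 2.62 FPKM in control.

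The promoters of Cxcl2 and Cxcl10 are shown as the chemokines of 10 FPKM or more with the largest differences among genes whose windows held the NF-kB word. Each window is the RefSeq sequence of GRCm38.p6, the assembly of mm10, from 250 bases before to 50 bases after the RefSeq start, 5′ to 3′ on the strand of the gene. Distances of words count from that start, which can differ from the start in the authors' table. Capitals mark the NF-kB word GGGNNNTTCC and the interferon-response (ISRE) word TTTCNNTTTC, on either strand. The Cxcl2 window lies at chr5:90903649-90903948 on the plus strand and has NF-kB words starting 97, 96 and 78 bases before the start, the first pair overlapping. The Cxcl10 window lies at chr5:92348840-92349139 on the minus strand, with an ISRE word 213 bases and NF-kB words 159 and 104 bases before the start.
Cxcl2: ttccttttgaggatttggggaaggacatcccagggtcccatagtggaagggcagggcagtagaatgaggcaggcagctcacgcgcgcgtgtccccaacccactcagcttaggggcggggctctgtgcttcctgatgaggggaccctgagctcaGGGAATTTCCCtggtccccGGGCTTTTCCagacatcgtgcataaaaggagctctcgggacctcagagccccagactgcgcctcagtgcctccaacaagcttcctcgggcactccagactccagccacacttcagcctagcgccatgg
Cxcl10: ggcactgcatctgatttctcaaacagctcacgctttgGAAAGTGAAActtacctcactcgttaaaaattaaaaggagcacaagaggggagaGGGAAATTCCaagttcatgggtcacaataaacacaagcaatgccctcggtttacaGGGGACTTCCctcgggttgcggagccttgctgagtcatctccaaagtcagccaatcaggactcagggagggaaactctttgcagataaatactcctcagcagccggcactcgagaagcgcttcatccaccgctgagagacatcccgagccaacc
The NF-kB word was found in 6.37% of the windows of all 8174 compared genes that had one and in 5.56% of 32851 RefSeq windows. A match says only that these letters are there; whether a factor bound was not measured.

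Most compared members of the interferon-induced lists were higher. In the IFIT, OAS and MX list 12 of 14 compared members were higher and 0 lower, with a median log2 difference of 2.67. Among these, Ifit1, Mx2 and Mx1 reached 1 FPKM only with LPS, so they could not have been called lower. Over the alternative settings the median of this list ran from 1.83 to 3.34. The list of interferon-inducible GTPases, which attack vacuoles that hold pathogens, had 11 of 11 compared members higher, with a median log2 difference of 2.58. Another 7 GTPases were under 1 FPKM in both libraries and were not compared. All 18 found summed to 114 FPKM with LPS and 8.56 FPKM in control. Over the settings 7 to 16 GTPases were higher and 0 lower, and the median ran from 1.07 to 3.66. The RNA-binding effector Ifit1 was 24.9 FPKM with LPS against 0.275 FPKM in control, 90.2-fold higher (51.1 to 172). Oasl1 was 221 FPKM with LPS against 10.7 FPKM in control and Oas3 62.4 FPKM with LPS against 5.26 FPKM in control, Mx2 22.3 FPKM with LPS against 0.255 FPKM in control, and Mx1 1.1 FPKM with LPS against 0.112 FPKM in control, under the line. Irgm1, the most abundant of the GTPases, was 34.6 FPKM with LPS against 2.45 FPKM in control and Gbp3 10.8 FPKM with LPS against 0.109 FPKM in control. The OAS, IFIT and schlafen genes are sets of close copies, so values of single members are less certain than the lists.

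Effectors of the ISG15 list showed 19 of 25 members higher and none lower, with a median of 2.11. Isg15, the ubiquitin-like modifier (chromosome 4, 156199455 to 156200796, minus strand), was 219 FPKM with LPS against 2.09 FPKM in control, and its protease Usp18 88.6 FPKM with LPS against 1.62 FPKM in control. Uba7 and Ube2l6, enzymes of ISG15 conjugation, were higher as well. Rsad2, encoding viperin, was 25.3 FPKM with LPS against 0.0855 FPKM in control. Ifitm3, which blocks virus entry, was 838 FPKM with LPS against 181 FPKM in control, but its neighbour Ifitm2 171 FPKM with LPS against 169.6 FPKM in control, a log2 difference of 0.01. Sensors of foreign nucleic acid had 10 of 16 higher. The RNA sensors Ddx58 (RIG-I) (38.3 FPKM with LPS, 1.82 in control), Ifih1 (MDA5) (19.8 FPKM with LPS, 0.949 in control) and Dhx58 (38.4 FPKM with LPS, 1.89 in control) were among them, while the adaptors were not: Mavs was 9.45 FPKM with LPS against 13.2 FPKM in control and Sting1 8.05 FPKM with LPS against 13.1 FPKM in control, and the DNA sensor Cgas 19.2 FPKM with LPS against 15.4 FPKM in control. In the schlafen and TRIM list 14 of 17 were higher and none lower, led by Slfn5 (33.2 FPKM with LPS, 0.683 in control) and Slfn2 (357 FPKM with LPS, 16.9 in control); Slfn3 and Slfn9 stayed within 2-fold.

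The promoter of Isg15 is shown for its row of ISRE words, in capitals, which read GAAANNGAAA on this strand. The window lies at chr4:156200769-156201068 on the minus strand of GRCm38.p6, and the words start 78, 72 and 66 bases before the start, each overlapping the next.
Isg15: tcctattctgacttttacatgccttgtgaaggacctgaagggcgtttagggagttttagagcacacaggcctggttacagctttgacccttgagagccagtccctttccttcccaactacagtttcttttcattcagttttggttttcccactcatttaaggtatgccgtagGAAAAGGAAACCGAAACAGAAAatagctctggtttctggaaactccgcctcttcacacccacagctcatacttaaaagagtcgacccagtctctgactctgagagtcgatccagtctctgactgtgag
The ISRE word was found in 3.23% of the windows of all compared genes and in 3.44% of all RefSeq windows. It stood in 7 of 10 windows of the IFIT, OAS and MX list, in 8 of 9 of the GTPase list, in 7 of 20 of the ISG15 list and in 8 of 15 of the schlafen and TRIM list.

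Antigen presentation and the cell surface were altered in part. Class I presentation had 4 of 18 members higher and none lower: H2-T24 (34.6 FPKM with LPS, 4.86 in control), the peptide transporter Tap1 (14.7 FPKM with LPS, 3.17 in control), Tapbp (94.1 FPKM with LPS, 31.9 in control) and the class I transactivator Nlrc5 (5.82 FPKM with LPS, 2.11 in control). The classical molecules H2-K1 (38.1 FPKM with LPS, 22.4 in control) and H2-D1 (136 FPKM with LPS, 89.2 in control) and B2m (635 FPKM with LPS, 530.0 in control) were under 2-fold. None of 7 immunoproteasome genes passed 2-fold in either direction; Psmb8 was 11.3 FPKM with LPS against 11.6 FPKM in control. Class II genes stayed low, with H2-Aa 1.05 FPKM with LPS against 0.253 FPKM in control and H2-Ab1 1.23 FPKM with LPS against 0.49 FPKM in control, levels within the range of the skin and gut markers above, and Ciita 0.0589 FPKM with LPS against 0 FPKM in control. Ifi30, the lysosomal thiol reductase GILT (chromosome 8, 70762774 to 70766663, minus strand), was 92.5 FPKM with LPS against 380.2 FPKM in control, 4.11-fold lower (3.88 to 4.36).

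Costimulatory and checkpoint genes had 9 of 16 higher and 4 lower. Cd83 was 93.7 FPKM with LPS against 9.43 FPKM in control, the PD-1 ligand Cd274 7.35 FPKM with LPS against 0.728 FPKM in control, Lgals9 48 FPKM with LPS against 3.61 FPKM in control and Icam1, an adhesion ligand, 128 FPKM with LPS against 29 FPKM in control. Cd80 was 2.34 FPKM with LPS against 0.396 FPKM in control, and Cd86 stayed under 1 FPKM with 0.108 FPKM with LPS and 0.0328 FPKM in control. Of the 4 lower members, Havcr2 (TIM-3) was 0.713 FPKM with LPS against 7.6 FPKM in control and Vsir (VISTA) 2.29 FPKM with LPS against 12 FPKM in control. Cd276 was 0.802 FPKM with LPS against 5.2 FPKM in control and Sirpa 23.4 FPKM with LPS against 59.6 FPKM in control. The list of Fc receptors and ITAM signalling had 6 of 16 members higher and 1 lower. Lilrb4a, an inhibitory receptor with ITIM motifs, was 257 FPKM with LPS against 39.5 FPKM in control, and the kinase Syk, which binds phosphorylated ITAMs, 16.3 FPKM with LPS against 6.36 FPKM in control. The lower member was Trem2, a receptor for lipids and cell debris, with 6.04 FPKM with LPS and 42.5 FPKM in control, 7.04-fold lower (6.38 to 7.78). Integrins split as Itga5, the fibronectin receptor chain, with 129 FPKM with LPS and 18.1 FPKM in control, and Itga4 with 31.3 FPKM with LPS and 87.5 FPKM in control. The list of purinergic and other G protein-coupled receptors had 4 of 14 members higher and 2 lower. Hcar2, the nicotinic acid receptor, was 26.2 FPKM with LPS against 0.967 FPKM in control and Gpr84, a receptor for medium-chain fatty acids, 216 FPKM with LPS against 38.6 FPKM in control, whereas P2rx7, an ATP-gated channel kept in the same list, was 1.42 FPKM with LPS against 5.48 FPKM in control and the oxysterol receptor Gpr183 3.86 FPKM with LPS against 35.1 FPKM in control. Regulators of G protein signalling had 2 of 17 higher and 6 lower, with Rgs16 at 5.62 FPKM with LPS and 0.134 FPKM in control and the arrestin gene Arrb1 at 2.69 FPKM with LPS and 13.4 FPKM in control.

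Metabolic enzymes differed both ways. Acod1, which makes itaconate from cis-aconitate (chromosome 14, 103046977 to 103056573, plus strand), was 1519 FPKM with LPS against 5.83 FPKM in control, 261-fold higher (230.3 to 296), and no other member of the citrate cycle list was higher. Idh1 (12.9 FPKM with LPS, 34.8 in control) and Idh2 (44.8 FPKM with LPS, 93.8 in control), the NADP-dependent isocitrate dehydrogenases, were lower, and the succinate dehydrogenase genes lay below control within 2-fold, Sdhb at 29.3 FPKM with LPS and 56.9 FPKM in control. The median of the list was -0.46. Glycolysis genes had a median of -0.21: the glucose carrier Slc2a1 was 77.8 FPKM with LPS against 30.6 FPKM in control, Hk2 50.1 FPKM with LPS against 25.3 FPKM in control, Pkm, the most abundant member, 938 FPKM with LPS against 1363 FPKM in control, and Pdk1, which holds back pyruvate dehydrogenase, 2.93 FPKM with LPS against 8.13 FPKM in control. All 33 compared nuclear respiratory chain subunits stayed within 2-fold with a median of -0.51, and the 13 mitochondrially encoded ones with a median of -0.29. The 7 compared pentose phosphate genes also stayed within 2-fold, with a median of -0.61.

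Nitric oxide synthesis depends on Nos2 and on tetrahydrobiopterin, which Gch1 begins to make. Nos2 (chromosome 11, 78920787 to 78960254, plus strand) was 32.5 FPKM with LPS against 0.981 FPKM in control, 33.1-fold higher (26.2 to 42.4), and Gch1 8.4 FPKM with LPS against 1.66 FPKM in control, while Qdpr, which recycles the cofactor, was 12.2 FPKM with LPS against 26.5 FPKM in control. Arg1 stayed under 1 FPKM with 0.28 FPKM with LPS and 0.0382 FPKM in control. Il4i1, a secreted amino acid oxidase, was 23.8 FPKM with LPS against 0.177 FPKM in control. Odc1, the first enzyme of polyamine synthesis (chromosome 12, 17544794 to 17551084, plus strand), was 658 FPKM with LPS against 89.2 FPKM in control, 7.38-fold higher (7.16 to 7.6), and Sat1, which sends polyamines to export, 61.6 FPKM with LPS against 26.7 FPKM in control. In the list of NADPH oxidase and superoxide dismutases 2 of 10 members were higher and 0 lower, and 6 lay below control (median -0.18). Its higher members included Sod2 at 41.2 FPKM with LPS and 9.41 FPKM in control. Cybb, an NADPH oxidase chain, was 186 FPKM with LPS against 71.4 FPKM in control. Antioxidant targets of the factor NRF2 had 3 of 19 higher and 1 lower, with a median of -0.02. The cystine carrier Slc7a11, a higher member, was 7.53 FPKM with LPS against 1.16 FPKM in control. Of 15 compared iron genes 4 were higher and 1 lower, at a log2 difference of -1.60, and the median was 0.04. Lcn2, which captures bacterial siderophores, was 6.0 FPKM with LPS against 0.0681 FPKM in control. Slc11a1 (NRAMP1) was 14 FPKM with LPS against 5.47 FPKM in control, and Hmox1 82.8 FPKM with LPS against 36.7 FPKM in control. The ferritins stayed close to control, with Ftl1 1801 FPKM with LPS against 1828 FPKM in control.

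In eicosanoid synthesis the cyclooxygenases had opposite directions. Ptgs2, the inducible enzyme (chromosome 1, 150100031 to 150108227, plus strand), was 425 FPKM with LPS against 2.53 FPKM in control, 168-fold higher (145 to 194); Ptgs1 was 1.31 FPKM with LPS against 17.5 FPKM in control, 13.4-fold lower (10.5 to 17). The prostaglandin E synthase Ptges was 2.46 FPKM with LPS against 0.372 FPKM in control. In the leukotriene arm Alox5ap was 15.2 FPKM with LPS against 78.8 FPKM in control, 5.18-fold lower (4.6 to 5.85), and Alox5 0.84 FPKM with LPS against 4.97 FPKM in control, while Lta4h was 7.19 FPKM with LPS against 10.1 FPKM in control, within 2-fold. Hpgd, which degrades prostaglandins, was 0.422 FPKM with LPS against 5.3 FPKM in control, and Hpgds 3.25 FPKM with LPS against 10.9 FPKM in control. Over the list 2 of 16 were higher and 6 lower, with a median of -0.78.

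Lipid enzymes had more lower than higher members. In fatty acid synthesis 1 of 18 was higher and 6 lower. Scd2, a stearoyl-CoA desaturase (chromosome 19, 44293674 to 44306864, plus strand), was 32.6 FPKM with LPS against 237 FPKM in control, 7.27-fold lower (6.98 to 7.57), Fads2 36.2 FPKM with LPS against 135 FPKM in control and Fads1 22.4 FPKM with LPS against 79.9 FPKM in control, adjoining genes of polyunsaturated fatty acid synthesis, while the synthase Fasn was 52.8 FPKM with LPS against 51.6 FPKM in control. Hilpda, a lipid droplet protein, was the higher member with 20.1 FPKM with LPS and 7.67 FPKM in control. Cholesterol synthesis had 5 of 23 lower and none higher, among them Fdps (28.8 FPKM with LPS, 71.7 in control). Among fatty acid oxidation genes 4 of 19 were lower, led by Acaa2 (7.27 FPKM with LPS, 21.8 in control). The sterol exporter Abcg1 was 1.76 FPKM with LPS against 10.3 FPKM in control and Abca1 1.18 FPKM with LPS against 0.423 FPKM in control.

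Genes of DNA replication and division were lower together. In the replication list 20 of 35 members were lower and none higher, with a median of -1.10, and only Orc1 lay above control, at 7.58 FPKM with LPS and 6.65 FPKM in control. Gmnn, the licensing inhibitor geminin, was 10.3 FPKM with LPS against 51.9 FPKM in control, 5.03-fold lower (4.36 to 5.82), the ligase Lig1 10.3 FPKM with LPS against 44.4 FPKM in control and the helicase subunit Mcm7 15.8 FPKM with LPS against 56.2 FPKM in control. Pcna, the sliding clamp and the most abundant member, was 76.5 FPKM with LPS against 151 FPKM in control, just inside 2-fold. Each of the helicase genes Mcm2 to Mcm7 lay below control. The list of E2F factors and G1 cyclins had 7 of 21 lower and none higher: E2f2 was 0.99 FPKM with LPS against 10.6 FPKM in control, 10.7-fold lower (8.45 to 13.8), E2f8 3.08 FPKM with LPS against 17.3 FPKM in control, E2f1 5.13 FPKM with LPS against 15.3 FPKM in control and Ccnd1, cyclin D1, 28.1 FPKM with LPS against 87.2 FPKM in control. Cdk6, Cdc25a and E2f5 lay above control, Cdk6 at 17 FPKM with LPS and 10.7 FPKM in control.

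Of 24 nucleotide synthesis genes 8 were lower and 0 higher (median log2 difference -0.57). Tk1 was 2.48 FPKM with LPS against 31.2 FPKM in control, 12.6-fold lower (10.8 to 14.6), Dut 10.5 FPKM with LPS against 44.9 FPKM in control and Rrm2, the inducible ribonucleotide reductase subunit, 25.2 FPKM with LPS against 78.3 FPKM in control, while Ctps (44.3 FPKM with LPS, 42.4 in control) and Impdh2 (71.5 FPKM with LPS, 70.7 in control), which also serve RNA synthesis, were close to control. Mitotic genes had 14 of 26 lower and none higher, with a median of -1.05. Foxm1, the factor that drives mitotic genes, was 8.63 FPKM with LPS against 35.4 FPKM in control, the proliferation marker Mki67 30.8 FPKM with LPS against 84.5 FPKM in control, 2.74-fold lower (2.65 to 2.83), Plk1 25.3 FPKM with LPS against 66.7 FPKM in control and Aurkb 16.3 FPKM with LPS against 45.4 FPKM in control. Cdk1 was 24.6 FPKM with LPS against 33.5 FPKM in control, and its cyclin Ccna2 22.4 FPKM with LPS against 65.9 FPKM in control. All 28 kinesin and centromere genes lay below control, 12 of them by 2-fold, or 3 with a pseudocount of 5 FPKM and 7 after upper-quartile scaling. Fewer dividing cells and less of these transcripts in each cell cannot be told apart in RNA from whole cultures.

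The promoters of E2f2 and Gins3 are shown as the members of the cell-cycle lists with the largest downward differences whose windows held an E2F word, TTTCCCGC or TTTGGCGC on either strand, in capitals. The E2f2 window lies at chr4:136172024-136172323 on the plus strand, with the word starting 39 bases after the RefSeq start. In the authors' table E2f2 starts at 136172394, beyond the end of this window, so by that start the word lies upstream. The Gins3 window lies at chr8:95633309-95633608 on the plus strand, with the word 41 bases before the RefSeq start. Gins3, a subunit of the replicative helicase, was 3.68 FPKM with LPS against 16.4 FPKM in control.
E2f2: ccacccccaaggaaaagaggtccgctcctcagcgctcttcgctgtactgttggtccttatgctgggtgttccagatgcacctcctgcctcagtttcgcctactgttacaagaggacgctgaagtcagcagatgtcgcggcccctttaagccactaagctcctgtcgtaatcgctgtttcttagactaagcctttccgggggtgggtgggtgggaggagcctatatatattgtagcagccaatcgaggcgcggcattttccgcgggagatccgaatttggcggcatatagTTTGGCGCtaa
Gins3: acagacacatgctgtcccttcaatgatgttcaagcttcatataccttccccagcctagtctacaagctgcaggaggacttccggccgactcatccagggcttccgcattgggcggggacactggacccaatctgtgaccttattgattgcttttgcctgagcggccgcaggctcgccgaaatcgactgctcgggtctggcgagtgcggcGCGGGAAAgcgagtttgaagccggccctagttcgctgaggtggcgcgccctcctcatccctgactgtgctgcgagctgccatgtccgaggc
An E2F word was found in 10 of 27 windows of the replication list and in 4 of 16 of the E2F and G1 cyclin list, against 3.47% of all compared windows and 1.56% of all RefSeq windows; it was in 0 of 20 windows of the mitotic list. In those 20 windows the CHR word TTTGAA was found in 12 and the word CCAAT in 16, against 12.3% and 39.7% of all compared windows and 17.9% and 37.4% of all RefSeq windows.

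**Figure D3:**
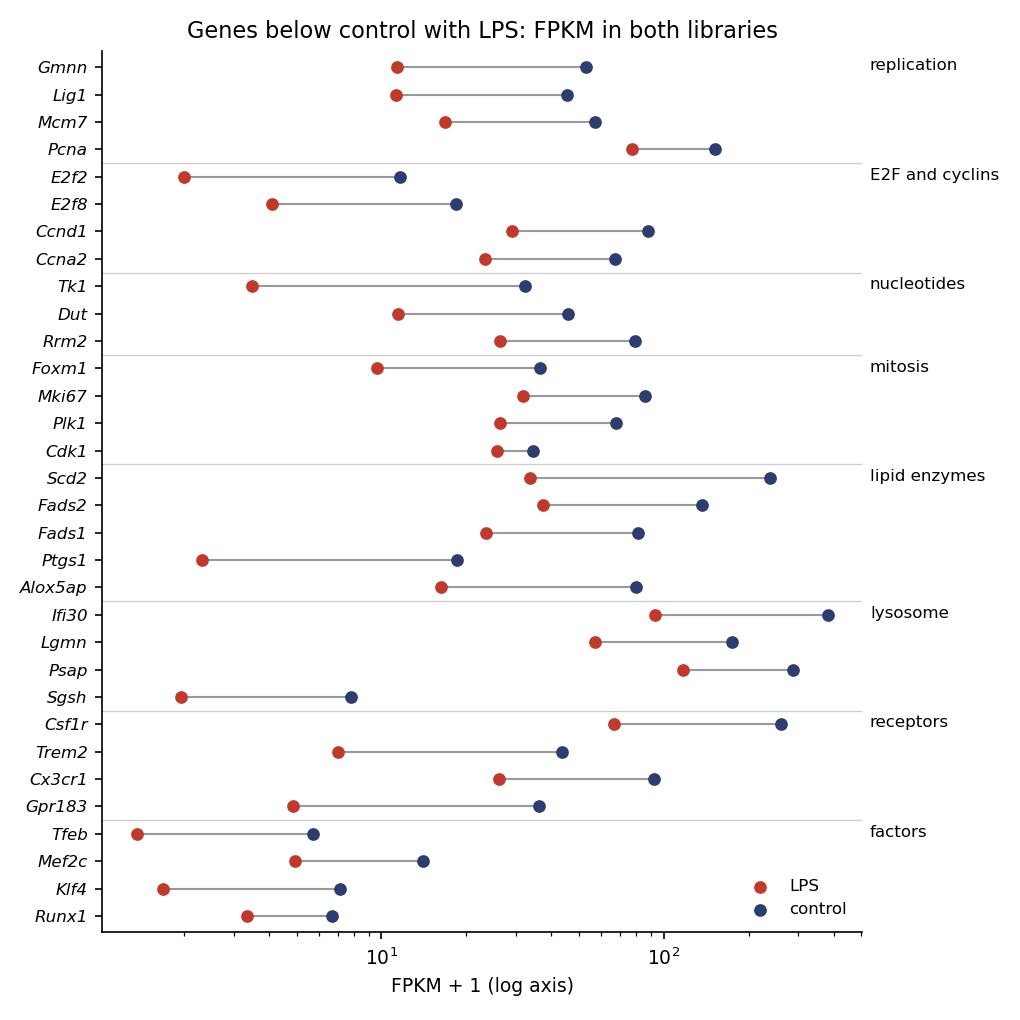
FPKM + 1 (log axis) with LPS (red) and in control (blue) for genes below control with LPS, grouped by role, 1 library per point. Every red point lies to the left of its blue partner; the longest bar belongs to Tk1, with 2.48 FPKM with LPS and 31.2 FPKM in control, and Pcna and Cdk1 are the members short of 2-fold.

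Growth arrest genes differed both ways. Gadd45b, an NF-kB target that binds stress kinases, was 100.004 FPKM with LPS against 2.93 FPKM in control, 34.1-fold higher (27.1 to 43.1), Plk2 14 FPKM with LPS against 0.763 FPKM in control, Btg2 19 FPKM with LPS against 5.51 FPKM in control and Cdkn1a, the inhibitor p21, 64.7 FPKM with LPS against 30.8 FPKM in control. Cdkn2c and Cdkn2d, other CDK inhibitors, were lower, with Cdkn2c at 4.36 FPKM with LPS and 15.1 FPKM in control and Cdkn2d at 7.32 FPKM with LPS and 19.8 FPKM in control, and Trp53 was 44.3 FPKM with LPS against 70.3 FPKM in control. DNA repair had 15 of 37 lower and none higher, or 2 lower with a pseudocount of 5 FPKM. Among chromatin enzymes 2 of 26 were higher and 5 lower: Kdm6b, the H3K27 demethylase JMJD3, was 21.6 FPKM with LPS against 3.03 FPKM in control, 7.12-fold higher (6.36 to 7.99), and Tet2 9.6 FPKM with LPS against 1.7 FPKM in control, whereas the maintenance methyltransferase Dnmt1 was 30.1 FPKM with LPS against 108 FPKM in control, its partner Uhrf1 22.1 FPKM with LPS against 67.9 FPKM in control and Hdac5 1.78 FPKM with LPS against 10.9 FPKM in control.

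Genes of biomass growth stayed closer to control than the cell-cycle genes. In the MYC and nucleolar list the median was 0.27, with Nop2 at 116 FPKM with LPS and 78.4 FPKM in control and Ncl at 274 FPKM with LPS and 232 FPKM in control. The 36 ribosomal protein genes were all within 2-fold, with a median of -0.27. The constitutive proteasome had 1 of 30 higher, Psma6 at 294 FPKM with LPS and 138 FPKM in control, and a median of 0.33. Heat shock chaperones had a median of 0.37; Hspa8 was 1221 FPKM with LPS against 614 FPKM in control, short of the line, and the near-identical Hspa1b and Hspa1a were 4.74 FPKM with LPS against 0.526 FPKM in control and 1.04 FPKM with LPS against 0.131 FPKM in control. In the unfolded protein response Dnajb9 was 7.86 FPKM with LPS against 3.34 FPKM in control and Sdf2l1 41.9 FPKM with LPS against 110.3 FPKM in control, and the list median was -0.42. Ppp1r15a, which relieves the translation block of stressed cells, was 33.1 FPKM with LPS against 6.66 FPKM in control, and Eif4ebp2, a repressor of cap-dependent translation, 9.7 FPKM with LPS against 27.7 FPKM in control.

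Members of both the survival and the inflammatory death genes were higher. Bcl2l1 was 47.7 FPKM with LPS against 5.11 FPKM in control, and the close copies Bcl2a1a, Bcl2a1b and Bcl2a1d, between which reads may be split, were all higher, Bcl2a1d at 544 FPKM with LPS and 34.2 FPKM in control. The pro-apoptotic Bcl2l11, encoding BIM, was 14 FPKM with LPS against 3.61 FPKM in control. The inflammasome sensor Nlrp3 (chromosome 11, 59541568 to 59566956, plus strand) was 177 FPKM with LPS against 17 FPKM in control, 10.4-fold higher (9.79 to 11.1), Casp4, which binds LPS in the cytosol and is called caspase 11 in mice, 15.6 FPKM with LPS against 1.96 FPKM in control, and Mlkl 13.4 FPKM with LPS against 4.4 FPKM in control. Casp1 was 19.4 FPKM with LPS against 13.6 FPKM in control, and the adaptor Pycard, needed by most inflammasomes, stayed under 1 FPKM with 0.527 FPKM with LPS and 0.0924 FPKM in control.

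In the lysosomal list, hydrolases and membrane proteins had 7 of 30 lower and none higher, with Sgsh at 0.944 FPKM with LPS and 6.79 FPKM in control and Psap, the saposin precursor, at 116 FPKM with LPS and 287 FPKM in control; the proton pump subunits Atp6v1h (13 FPKM with LPS, 7.46 in control) and Atp6v1b2 (56.9 FPKM with LPS, 38.3 in control) lay above control within 2-fold. Legumain (Lgmn) was 55.9 FPKM with LPS against 174 FPKM in control and the protease inhibitor Cst3 371 FPKM with LPS against 846 FPKM in control, while Ctsb was 282 FPKM with LPS against 263 FPKM in control. The autophagy receptor Sqstm1 was 274 FPKM with LPS against 68.8 FPKM in control, 3.98-fold higher (3.84 to 4.13), and the core autophagy genes stayed within 2-fold. In the urokinase system the receptor Plaur was 190.5 FPKM with LPS against 10.1 FPKM in control, 18.8-fold higher (17 to 20.7), and the protease Plau 3.81 FPKM with LPS against 39.2 FPKM in control, 10.3-fold lower (8.6 to 12.3).

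Cytoskeletal genes included a pair of actins with unlike values. Actg1 was 869 FPKM with LPS against 256 FPKM in control, 3.4-fold higher (3.33 to 3.47), while Actb was 1171 FPKM with LPS against 1030.4 FPKM in control, a log2 difference of 0.18. Marcksl1, a membrane-bound actin regulator (chromosome 4, 129513581 to 129515985, plus strand), was 465 FPKM with LPS against 21.3 FPKM in control, 21.8-fold higher (20.1 to 23.8), and Ehd1, an endosome recycling protein, 241 FPKM with LPS against 21.7 FPKM in control. Slc15a3, a lysosomal peptide carrier, was 70.6 FPKM with LPS against 2.69 FPKM in control. Osteoclast genes had 2 of 11 higher and 4 lower, with the master factor Nfatc1 at 7.14 FPKM with LPS and 17.7 FPKM in control. Among 16 common reference genes none was higher and 1 lower; Gapdh was 36.2 FPKM with LPS against 42.1 FPKM in control, with reads that may be shared with its near-identical pseudogenes.

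Mir155hg, the host transcript of miR-155 (chromosome 16, 84703167 to 84715245, plus strand), was 24.8 FPKM with LPS against 0.303 FPKM in control, 81.8-fold higher (39.6 to 199). The mature miRNA was not measured by poly(A) RNA-seq. Its sequence is shown for the gene it comes from, at chr16:84714143-84714165 on the plus strand of GRCm38.p6, from RefSeq, with the seed, bases 2 to 8, in capitals.
mmu-miR-155-5p: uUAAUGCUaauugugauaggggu
The nuclear RNAs Malat1 and Neat1 were 34.2 FPKM with LPS against 67.2 FPKM in control and 6.19 FPKM with LPS against 16.6 FPKM in control. By annotated type, 601 of 9885 protein-coding genes were higher and 792 lower, 11 and 14 of 144 lincRNAs, 14 and 8 of 132 antisense genes, and 27 and 27 of 1176 processed pseudogenes.

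**Figure D4:**
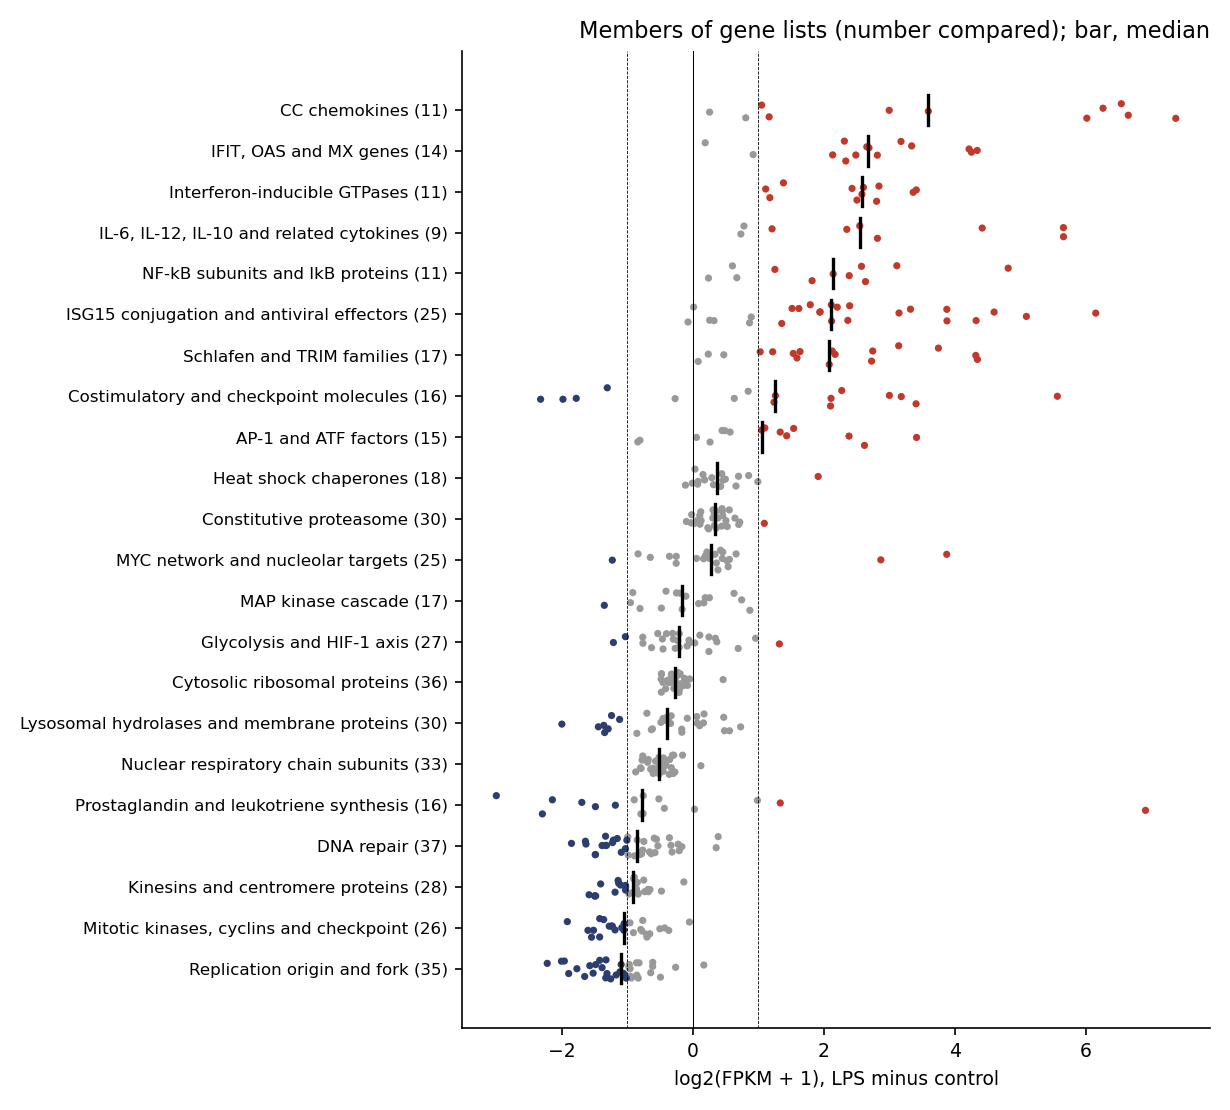
Log2(FPKM + 1) differences, LPS minus control (horizontal), of the compared members of 22 gene lists, with the number compared in brackets; points are genes, coloured at 2-fold, bars are list medians and dashed lines mark 2-fold. Chemokine and interferon lists lie far to the right with medians up to 3.60, the ribosomal and respiratory chain lists form narrow clouds within 2-fold, and replication and mitosis lie to the left with medians of -1.10 and -1.05.

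Several higher genes lay side by side. In windows of 500 kb, the cluster of the Ifi200 genes on chromosome 1 (173500001 to 174000000) had 9 of 10 compared genes higher, the schlafen cluster on chromosome 11 (83000001 to 83500000) 6 of 12, the next window with Ccl3, Ccl4, Ccl5 and Ccl9 5 of 9, and the OAS cluster on chromosome 5 (120500001 to 121000000) 6 of 14. Over the Ifi200 family, whose members sense DNA, 8 of 10 compared genes were higher and their summed level was 221 FPKM with LPS and 42.4 in control. The window with the most higher genes held another family. On chromosome 8 (21000001 to 21500000) all 15 compared genes were alpha-defensins, antimicrobial peptides of intestinal Paneth cells, and all were higher, as were 8 of 9 in the window that follows. Over 24 compared alpha-defensins 23 were higher, and their summed level was 594 FPKM with LPS, 589.7 with harmine plus LPS and 152 in control. They are near-identical copies, so reads may be split between them. The gut marker Fabp2 moved with them, at 45.5 FPKM with LPS, 50.2 with harmine plus LPS and 15 in control; its part in these values was not tested. In the immunoglobulin heavy chain locus 5 of 9 compared genes were lower and 1 higher, with Ighm at 44.6 FPKM with LPS, 35.8 with harmine plus LPS and 152 in control.

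Genes present on a single side were few. With 0 counts in control and 1 FPKM or more with LPS there were 24 genes, and 10 with the reverse. At 2 FPKM or more the 9 genes with 0 counts in control were Il6, Cxcl3, Ifnb1, Gstp3, Stfa3, Defa41 and the predicted genes Gm15564, Gm23294 and Gm7289, and the 2 with 0 counts with LPS were Gm20521 and Gm20656. Besides Il6, Cxcl3 and Ifnb1, Gstp3, a glutathione transferase, reached 5.24 FPKM and Stfa3, a stefin, 2.42 FPKM with LPS.

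Gene structure and promoter sequence were not used to call genes higher or lower. Protein-coding genes 4-fold higher had a median span of 13.2 kb and 7 exons, those 2-fold lower 19.4 kb and 9 exons, against 22 kb and 9 exons over all compared. Their promoter windows had a median GC content of 53.7% in the 4-fold higher genes and 60.3% in the 2-fold lower ones, against 61.0% over all, and an observed to expected CpG ratio of 0.351 and 0.720 against 0.793. The ratio was 0.441 in the 2-fold higher genes and 0.479 in the 4-fold lower ones, so it was below that of all compared genes at 4-fold in both directions. The NF-kB word stood in 17.8% of 157 windows of 4-fold higher genes and in 5.16% of 640 windows of lower genes, against 6.37% of all compared. The ISRE word stood in 23.6% and 3.12% of these windows, against 3.23%. For the AP-1 word TGANTCA the shares were 21% and 4.69% against 4.61%, with 7.81% over all RefSeq windows. The E2F words showed the opposite order, 1.27% of the 4-fold higher windows and 7.19% of the lower ones against 3.47%. The cyclic AMP word TGACGTCA stood in 1.27% and 2.03% against 3.52%, the cell-cycle word TTTGAA in 15.3% and 15.3% against 12.3%, and the word CCAAT in 36.3% and 43.6% against 39.7%; over all RefSeq windows these were 1.79%, 17.9% and 37.4%. In the 479 windows of 2-fold higher genes the NF-kB, ISRE and AP-1 words stood in 10.2%, 12.1% and 12.9%. In the 57 windows of 4-fold lower genes the E2F words stood in 7.02%, the word TTTGAA in 10.5% and the word CCAAT in 36.8%. The windows of the gene sets differ in base composition, as given above, and the part of that in these shares was not tested. The windows of Il1b, Ptgs2, Ccl22 and Ccl3 held none of the 7 word kinds, which says only that these letters are not in these 300 bases.

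**Figure D5:**
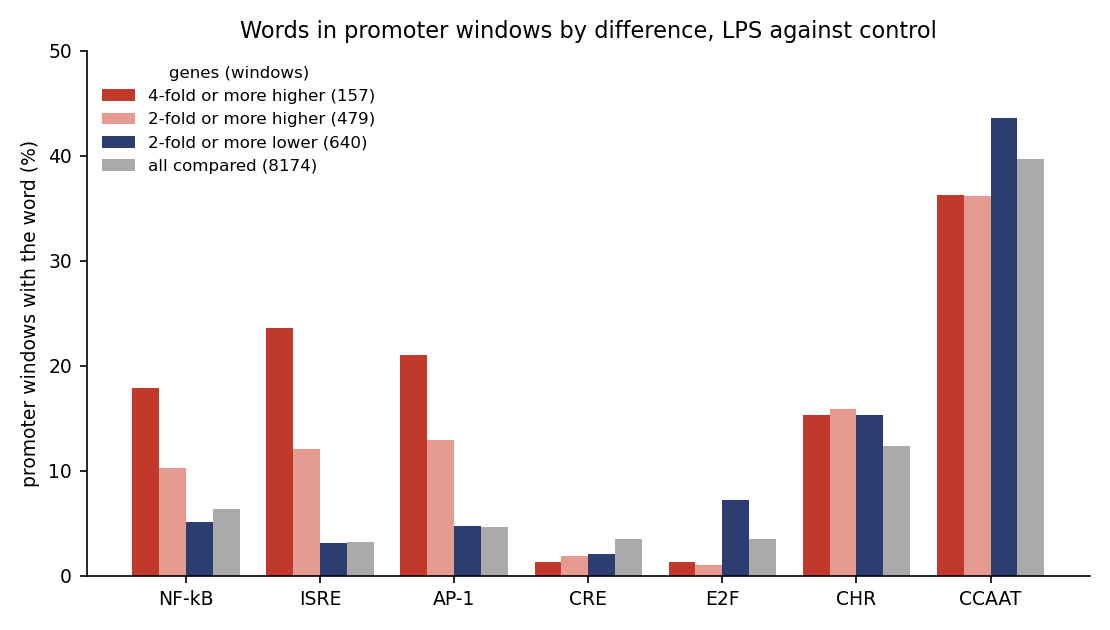
Share of promoter windows (per cent, axis from 0) that hold each of 7 sequence words, for genes 4-fold higher, 2-fold higher and 2-fold lower with LPS and for all compared genes, with the number of windows in brackets. The NF-kB, ISRE and AP-1 bars stand highest in the 4-fold higher genes (17.8%, 23.6% and 21%), the E2F bar in the lower genes (7.19%), and the CHR and CCAAT bars differ little between sets.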

How the data were processed

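RNA from 3 RAW264.7 cultures was poly(A)-selected, made into strand-marked (dUTP) libraries and sequenced as paired reads, per the labels' protocols. Per the submitters' processing notes, the tools were StringTie 2.1.6, HISAT2 2.2.1, cutadapt 1.9, edgeR and DESeq2 and the build mm10, with no role or order stated, nor whether counting used strand. The authors deposited 1 table with FPKM values and estimated counts per gene and library; the deposited counts rise in steps of 4 for many low genes, so 4 were read as 1 read pair. From the deposited FPKM, log2(FPKM + 1) with LPS minus control was computed over the 11922 genes at 1 FPKM or more in either library, with Python 3.11.15, pandas 2.3.3, numpy 2.4.6, scipy 1.17.1 and matplotlib 3.10.9. With 1 library per group no test was run. Clopper-Pearson intervals at 95%, and floors of 3 read pairs, cover counting error only; PCR copies are not independent molecules. The calculation was checked on simulated data. Gene lists (91, with 1636 of 1662 listed symbols found) and members were chosen with earlier results of these data known. Genes named are the 15 highest and 15 lowest among those of 10 FPKM or more, genes with 0 counts in 1 library and at least 2 FPKM in the other, the 10 of highest FPKM per library, up to 6 members per list with the largest differences, the largest opposite one and the most abundant, a fixed set of receptor, factor, cytokine, macrophage and reference genes, and members whose role was needed. Jdp2, Mycn, Bmyc, Atp6v1b2 and some members within 2-fold were chosen after their values were seen. Of the table's gene IDs 26595 were found in GENCODE M21 and 26454 had the same start there, which does not bear on RefSeq starts. Promoter windows from RefSeq on GRCm38.p6 were joined by gene symbol, chromosome and strand. The window with the nearest start within 100 kb was taken. Alternatives were the pseudocount, the filter, the scaling (TPM, median of ratios, upper quartile, CPM), the fold and leaving out markers of other cell types, and, chosen after seeing the data, the alpha-defensins as well.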

Additional observations from a re-analysis of the deposited data

How the results depend on the processing

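No paired analysis was possible because each group holds 1 library, and no replicate could be left out. Counts of genes depended on the settings. With a pseudocount of 0.1 there were 1469 lower genes; with 5 there were 347 higher and 291 lower genes and the median log2 difference of all genes was -0.084, by construction, since a larger pseudocount shrinks low genes. Without the filter the median was 0, because genes at 0 in both libraries enter. From values rescaled to TPM 1327 genes were higher and 1405 lower of 14733 compared, and from CPM 1236 and 1344 of 13639, since the filter and the pseudocount of 1 then act on another scale. Upper-quartile scaling put the median at -0.017. At 1.5-fold 1401 genes were higher and 2355 lower, and at 4-fold 225 and 86. Of the 450 named or listed genes past 2-fold, 164 were under 2-fold with a pseudocount of 5, 36 with upper-quartile scaling, 15 with median-of-ratios scaling and 2 with CPM. Without the markers of other cell types and the alpha-defensins there were 669 higher and 880 lower genes. The count of lower DNA repair genes ranged from 2 to 19 and that of lower kinesin and centromere genes from 3 to 18 over the settings, lowest with a pseudocount of 5. Depth limits genes near 1 FPKM, and no setting replaces the missing replicates.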
